A study of Mus musculus with 6 samples.

Results

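Retinoic acid supply, binding and response were followed through 9 genes in the testes of mice at postnatal day 5 (P5). The 9 were taken by symbol from a table of 57170 gene identifiers: the carriers Crabp1, Crabp2 and Rbp4, the uptake receptor Stra6, the synthesis enzymes Rdh10, Aldh1a1 and Aldh1a2, the breakdown enzyme Cyp26b1, and the response gene Stra8. The sKO group holds 4 libraries (sKO-1 to sKO-4) of testes in which Mdm2 was conditionally knocked out in germ cells that had not entered meiosis, and the WT group holds 2 libraries (WT-1 and WT-2) of wild-type testes of the same age. Mdm2 encodes the ubiquitin ligase that keeps the tumour suppressor p53 at low levels. Neither the promoter that drove the recombinase nor the strain of the mice is given in the sources used here. No label ties a library to an animal of its own, so the p-values measure spread among libraries that may be technical. RNA was taken from whole testis, so somatic cells, in which Mdm2 was not targeted, contribute to every value.

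Retinoic acid is made from retinol, which travels in blood on the binding protein RBP4 and can enter cells through the membrane receptor STRA6. Retinol dehydrogenases such as RDH10 oxidise it to retinal, retinaldehyde dehydrogenases of the ALDH1A family oxidise retinal to retinoic acid, and CYP26 enzymes break retinoic acid down, while CRABP proteins bind it inside cells. Retinoic acid then acts through nuclear receptors of the RAR and RXR families, and in the mouse testis it drives spermatogonia into differentiation in the first days after birth, with Stra8 as one of the genes it switches on in germ cells.

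The promoter sequences of Stra8 and Crabp1 are shown because these were the genes of the 9 with the largest falls in sKO testes. Each sequence is the 250 bases before the RefSeq start site, 5′ to 3′ on the strand of the gene, from RefSeq on GRCm38.p6 (the counts were made on mm39). The Stra8 window is chr6:34920698-34920947 and the Crabp1 window is chr9:54764498-54764747, both on the plus strand. Capitals in the Stra8 sequence mark the half-site AGGTCA that retinoic acid receptors are known to bind, and capitals in the Crabp1 sequence mark the GC box GGGCGG or, where it lies on the other strand, CCGCCC.
Stra8: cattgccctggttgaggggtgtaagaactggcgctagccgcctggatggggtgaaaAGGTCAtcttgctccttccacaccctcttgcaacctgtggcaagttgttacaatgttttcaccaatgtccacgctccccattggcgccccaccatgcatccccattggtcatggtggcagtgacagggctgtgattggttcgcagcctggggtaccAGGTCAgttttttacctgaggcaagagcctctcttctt
Crabp1: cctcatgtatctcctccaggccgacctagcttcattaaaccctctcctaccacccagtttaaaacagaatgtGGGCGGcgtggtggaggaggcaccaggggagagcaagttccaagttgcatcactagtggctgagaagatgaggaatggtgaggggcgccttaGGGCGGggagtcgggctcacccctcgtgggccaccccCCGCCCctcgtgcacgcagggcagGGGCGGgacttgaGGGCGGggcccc
Both strands were searched for AGGTCA. The variant GGGTCA was searched as well, as was the variant AGTTCA. The last half-site word searched was GGTTCA. The Stra8 window held 2 copies of AGGTCA on the plus strand, the first at −194 to −189 and the second at −38 to −33, counted back from the start site with the base before it as −1. Of 32851 mouse promoter windows of this length, 14.0% held AGGTCA at least once and 1.36% held it 2 or more times. No 2 half-sites in the same direction lay 1, 2 or 5 bases apart in the Stra8 window, an arrangement that 0.426% of all windows held. The Crabp1 window held none of these half-sites, and it held 5 GC boxes, where 16.7% of all windows held 2 or more. GC boxes were also found for Cyp26b1 (3), for Rbp4 (2 in 1 of its windows) and for Stra6 (1 or 2 in 3 of its 4 windows). Windows for 7 of the 9 genes were in the table used, and Crabp2 and Rdh10 were not. Among the other 5 genes with windows, Rbp4 and Aldh1a1 each had 1 GGGTCA in 1 window, and 38.6% of all windows held at least 1 of the half-site words. These matches describe letters in the windows and say nothing of binding.

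The libraries were of like depth, with summed expected counts of 17.99 to 18.4 M (mega) and 25074 to 26556 genes with a count. Values below are in CPM, counts divided by the scaled size of their library and brought to a common total, and 1 count was worth 0.0519 to 0.0578 CPM. A log2 fold change compares sKO with WT (edgeR's quasi-likelihood test, 17707 genes tested), and it passed where its adjusted p was under 0.05. Over all genes tested the median log2 fold change was 0.03. The axis of largest variance among the libraries (first principal component, 38.1%) did not follow genotype and set sKO-1, sKO-2 and WT-1 (subset 1) apart from sKO-3, sKO-4 and WT-2 (subset 2), and the labels name no batch that matches this. The subsets were drawn from these same values. A fit with a term for them therefore takes out the spread that defined them, and its adjusted p can be too small. Differences within the subsets are given below on the log2(CPM + 0.1) scale. Mdm2 itself stood at 37.6, 47.3, 41.8 and 45.1 CPM in the sKO libraries, against 67.2 and 75.9 CPM in the WT libraries (log2 fold change −0.74, SE 0.11, edgeR adjusted p = 0.0241). Markers of the labelled tissue were present: all 17 Sertoli cell genes listed passed the filter on low counts in these libraries.

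Of the 9 genes, Stra8, Crabp1 and Rbp4 fell in sKO testes and none rose past the test. Over all genes tested, 2.3% were called lower and 0.124% higher. All 9 genes passed the filter on low counts. By unadjusted p under 0.05, 3 of the 9 were lower and 1, Cyp26b1, was higher, against 8.91% and 4.17% of all genes. DESeq2 called 3 lower and 1 higher, where it called 3.87% of all genes lower and 0.633% higher. With a term for the subsets edgeR also called 3 lower and 1 higher, against 8.65% and 4.97% of all genes. The counts by limma-voom were 3 lower and 0 higher, against 2.52% and 0.102% of all genes. With the replicate number as a block on the 4 libraries numbered 1 and 2, 2 were lower and 0 higher, against 1.54% and 0.109% of all genes. Without WT-1 the count was 0 in either direction, and of all genes 0.00543% were then called lower and 0.0109% higher. The 4 sKO values lay below both WT values for 4 of the 9 genes (13.3% of all genes tested) and above both for 1 (9.79%). The median log2 fold change of the 9 was −0.09.

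**Figure D1:**
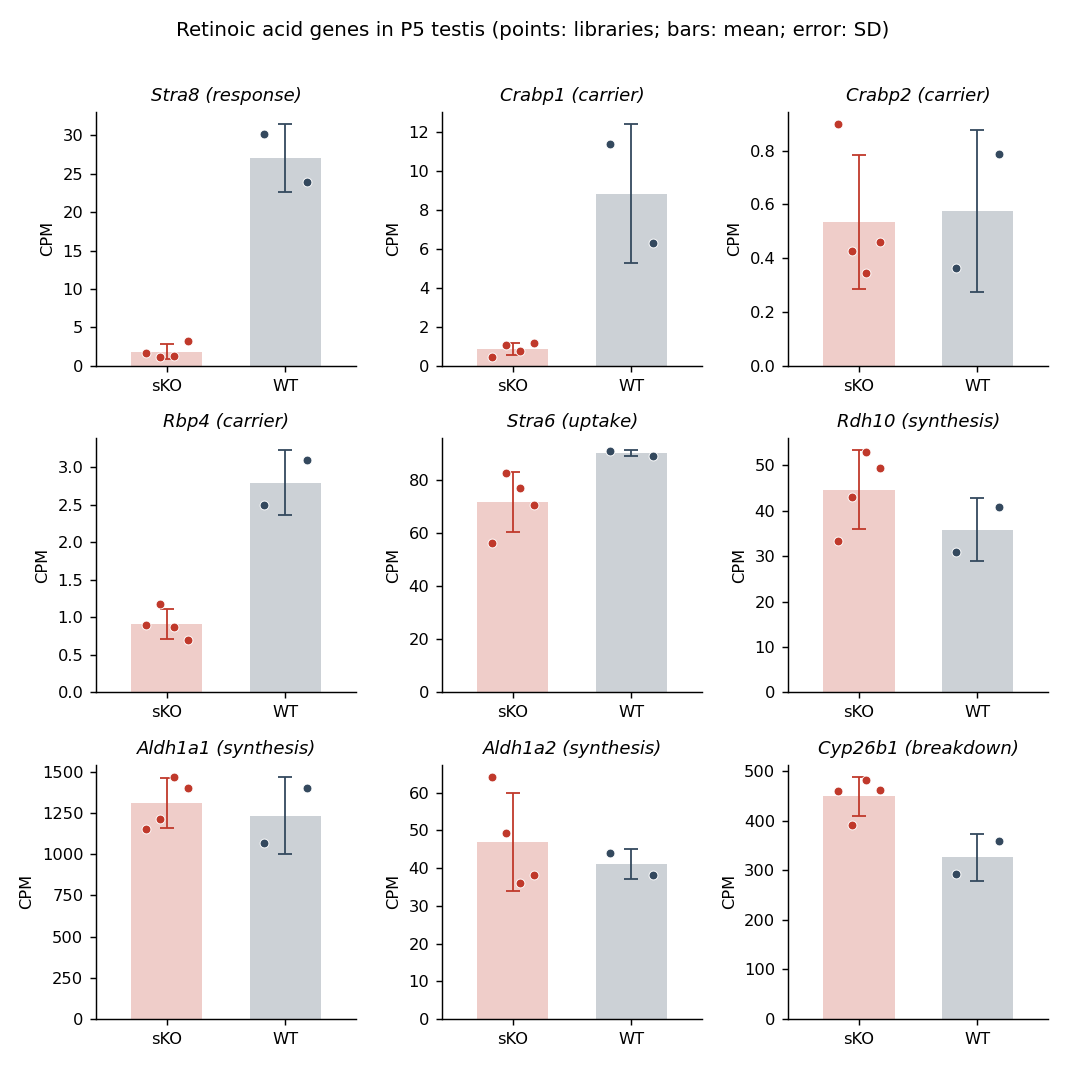
CPM of each of the 9 genes in the 4 sKO libraries (red, left) and the 2 WT libraries (blue, right), on a separate linear axis per gene. Points are libraries, bars are means and error bars are SD. Stra8 averaged 1.85 CPM in sKO and 27.0 CPM in WT, while Aldh1a1 averaged 1310 CPM in sKO and 1235 CPM in WT with overlapping points.

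Stra8, whose product is needed by germ cells to enter meiosis, had the largest fall of the 9. It stood at 1.64, 1.18, 1.27 and 3.29 CPM in sKO-1 to sKO-4, against 30.2 CPM in WT-1 and 23.9 CPM in WT-2. Every sKO library lay below both WT libraries, and sKO-4 was the highest of its group. Stra8 had a log2 difference of −3.87 (SE 0.37, 95% interval −4.73 to −3.01, edgeR adjusted p = 0.00929), which is 14.6-fold lower in sKO. It ranked 14 from the lowest log2 fold change of the 17707 genes tested. The fall was present in both subsets, at −4.34 in subset 1 and −3.48 in subset 2 on the log2(CPM + 0.1) scale. Without WT-1 the value was −3.69 and missed the threshold (edgeR adjusted p = 0.111). These values rest on 31, 22, 22 and 57 counts in the sKO libraries, against 581 and 424 in the WT libraries. The 57 counts of sKO-4 have an exact Poisson 95% interval of 43.2 to 73.9, above the interval of 13.8 to 33.3 for the 22 counts of sKO-2 and of sKO-3 but overlapping that of 21.1 to 44.0 for the 31 counts of sKO-1, and these intervals cover counting error only. The coefficient of variation of Stra8 over the sKO libraries was 53.4%, where counting alone would give 17.4%.

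Among the carriers, Crabp1 and Rbp4 fell and Crabp2 did not pass the test. Crabp1, which binds retinoic acid in the cytoplasm, stood at 0.476, 1.07, 0.751 and 1.16 CPM in sKO-1 to sKO-4, against 11.4 CPM in WT-1 and 6.31 CPM in WT-2. All sKO values were below both WT values, and the WT libraries themselves differed more than those of Stra8. Crabp1 fell by a log2 fold change of −3.35 (SE 0.38, 95% interval −4.24 to −2.46, edgeR adjusted p = 0.0110), or 10.2-fold lower in sKO. It was −3.80 within subset 1 and −2.63 within subset 2, and without WT-1 it was −2.86 and missed the threshold (edgeR adjusted p = 0.143). The sKO libraries held 9, 20, 13 and 20 Crabp1 counts, against 219 and 112 in the WT libraries.

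Rbp4, the blood carrier of retinol, was low in all libraries. It stood at 0.900, 1.18, 0.866 and 0.693 CPM in sKO-1 to sKO-4, against 2.49 CPM in WT-1 and 3.10 CPM in WT-2. The groups did not overlap, and the log2 fold change was −1.61 (SE 0.32, 95% interval −2.34 to −0.88, edgeR adjusted p = 0.0464). This call is close to the threshold and rests on 12 to 22 counts in the sKO libraries, against 48 and 55 in the WT libraries. Within the subsets it was −1.20 in subset 1 and −1.87 in subset 2. The call was lost when any 1 of the 6 libraries was left out, with log2 fold changes between −1.76 and −1.47 and edgeR adjusted p between 0.0859 and 0.287.

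Crabp2, the second cytoplasmic binding protein, stood at 0.900, 0.428, 0.347 and 0.462 CPM in sKO-1 to sKO-4, against 0.363 CPM in WT-1 and 0.789 CPM in WT-2. The groups overlapped. Its log2 difference of −0.09 (SE 0.57, edgeR adjusted p = 0.972) had a 95% interval of −1.42 to 1.23, with 6 to 17 counts a library. A change within that interval could have been missed, and to pass the test over all genes a change would have to be larger still. Within the subsets the difference had opposite signs, at 0.65 in subset 1 and −0.83 in subset 2. The transcripts of Crabp1 and Crabp2 were 71.2% identical over 424 aligned bases, and no count of either was fractional in the table.

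Stra6, which takes retinol from RBP4 across the cell membrane, did not pass the test, although all sKO values lay below both WT values. It stood at 56.2, 82.6, 77.1 and 70.5 CPM in sKO-1 to sKO-4, against 90.8 CPM in WT-1 and 89.1 CPM in WT-2. The WT libraries were nearly equal and sKO-1 was the lowest. Its difference on the log2 scale was −0.33 (SE 0.15, 95% interval −0.67 to 0.01, edgeR adjusted p = 0.406, or 0.122 with a term for the subsets), with −0.41 within subset 1 and −0.27 within subset 2.

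None of the 3 synthesis enzymes passed the test, and their groups overlapped. Rdh10, which oxidises retinol to retinal, stood at 33.3, 43.1, 53.0 and 49.3 CPM in sKO-1 to sKO-4, against 30.9 CPM in WT-1 and 40.7 CPM in WT-2. Within each subset both sKO libraries were above the WT library, by 0.29 in subset 1 and 0.33 in subset 2 on average, and the log2 fold change was 0.32 (SE 0.20, 95% interval −0.15 to 0.79, edgeR adjusted p = 0.601, or 0.0756 with a term for the subsets).

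Aldh1a1, the most abundant of the 9 genes and a retinaldehyde dehydrogenase known from Sertoli cells in the mouse, stood at 1152, 1214, 1471 and 1403 CPM in sKO-1 to sKO-4, against 1071 CPM in WT-1 and 1400.3 CPM in WT-2. The libraries of subset 2 were higher than those of subset 1 in both genotypes. Between genotypes the log2 fold change was 0.08 (SE 0.15, 95% interval −0.26 to 0.43, edgeR adjusted p = 0.893). It took the other sign, at −0.059, when libraries were scaled to their summed Sertoli cell genes. Aldh1a1 counts were fractional in every library, and its transcript was 88.8% identical over 2036 bases to that of Aldh1a7. Aldh1a7 was far lower, at 15.3 ± 2.85 CPM in sKO (SD, n = 4) and 12.5 ± 1.64 CPM in WT (SD, n = 2), and how reads were split between these copies is uncertain.

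Aldh1a2, the retinaldehyde dehydrogenase needed in the mouse embryo, stood at 64.3, 49.4, 36.1 and 38.1 CPM in sKO-1 to sKO-4, against 44.0 CPM in WT-1 and 38.3 CPM in WT-2. Here the libraries of subset 1 were the higher ones in both genotypes. On average the log2 fold change was 0.19 (SE 0.23, 95% interval −0.35 to 0.73, edgeR adjusted p = 0.833), with 0.36 within subset 1 and −0.05 within subset 2. Levels of the ALDH1A genes can be set against each other only per length of exon. The union of Aldh1a1 exons was 4937 bases, against 2358 for its longest protein-coding transcript, while both were 2264 for Aldh1a2. The level of Aldh1a1 per length may therefore be understated. On that scale Aldh1a1 made up 91.5% ± 2.94 of the summed Aldh1a1, Aldh1a2 and Aldh1a3 in sKO (SD, n = 4) and 92.1% ± 2.25 in WT (SD, n = 2). Aldh1a2 made up 7.32% ± 2.59 in sKO and 6.86% ± 1.79 in WT, so the makeup of the family differed between the groups by less than the spread between libraries.

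Cyp26b1, the enzyme that breaks down retinoic acid in the fetal mouse testis, was the 1 gene of the 9 whose sKO values all lay above both WT values. It stood at 459.7, 391.8, 482.4 and 462.3 CPM in sKO-1 to sKO-4, against 292.8 CPM in WT-1 and 359.7 CPM in WT-2. The lowest sKO library was sKO-2, and the higher WT library was WT-2. The log2 fold change was 0.46 (SE 0.12, 95% interval 0.17 to 0.75), or 1.38-fold, and it missed the threshold over all genes (edgeR adjusted p = 0.136). It passed in DESeq2 (0.47, adjusted p = 0.0269) and in edgeR with a term for the subsets (0.47, adjusted p = 0.00415), and it was 0.54 within subset 1 and 0.39 within subset 2. Summed Sertoli cell genes ran from 6984 to 7832 CPM in sKO, against 6110 to 7289 CPM in WT. With libraries scaled to those genes the Cyp26b1 log2 fold change was 0.32 (edgeR adjusted p = 0.0789), while the median of all genes moved to −0.12.

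**Figure D2:**
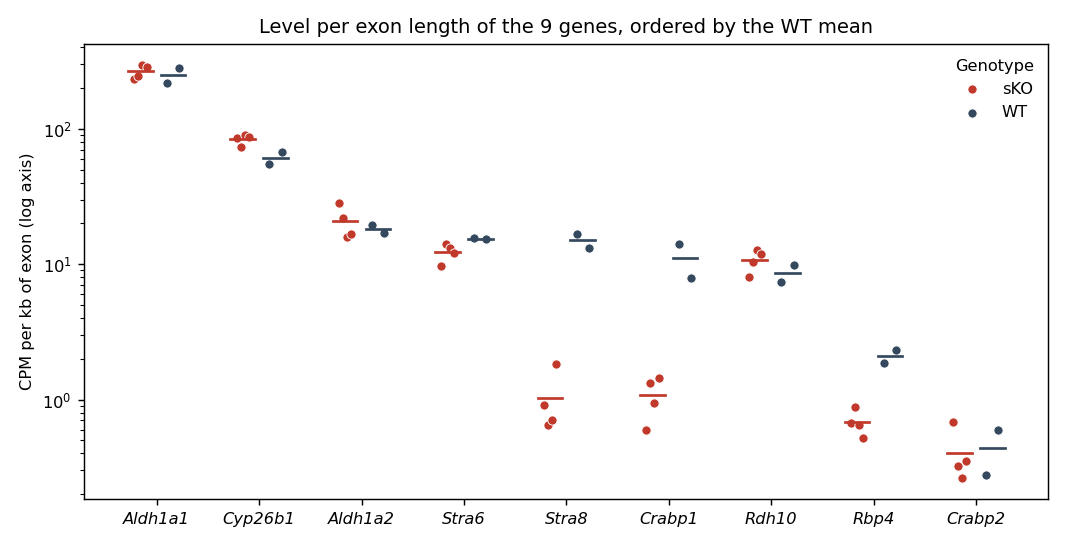
Level of each of the 9 genes per length of exon (CPM per kb, log axis), in order of the WT mean, with sKO libraries in red on the left and WT libraries in blue on the right of each pair. Points are libraries and lines are means. Stra8 averaged 1.02 CPM per kb in sKO and 14.99 CPM per kb in WT, beside Stra6 at 12.3 in sKO and 15.4 in WT.

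Per length of exon, the order of the 9 genes differed between the genotypes in its middle part. In sKO the means ran from Aldh1a1 (265 CPM per kb) through Cyp26b1 (83.9), Aldh1a2 (20.7), Stra6 (12.3), Rdh10 (10.7), Crabp1 (1.08), Stra8 (1.02) and Rbp4 (0.677) to Crabp2 (0.404). Neighbours whose ranges overlapped in sKO were Stra6 with Rdh10, and each adjacent pair among the last 4. In WT the means ran from Aldh1a1 (250.2 CPM per kb) through Cyp26b1 (61.0), Aldh1a2 (18.2), Stra6 (15.4), Stra8 (14.99), Crabp1 (11.02), Rdh10 (8.61) and Rbp4 (2.08) to Crabp2 (0.436). The ranges of adjacent genes from Stra6 to Rdh10 overlapped in WT. Stra8 and Crabp1 thus stood beside Stra6 and Rdh10 in WT and below the ranges of both in sKO, while the first 3 places were the same in both. The place of a gene beside another depends on the exon length used. A union of exons can be longer than a transcript, as for Crabp2 (1322 bases, against 931 for its longest protein-coding transcript).

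Other germ cell transcripts were also lower in the sKO libraries. Of 18 pan-germ-cell genes such as Dazl and Ddx4, 17 fell and 0 rose in sKO, with a median log2 fold change of −2.31. Their summed level was 204, 136, 123 and 208 CPM in sKO-1 to sKO-4, against 989 CPM in WT-1 and 685 CPM in WT-2, and none was at 0 in every library. Of 14 tested genes of undifferentiated spermatogonia 7 fell, with a median of −1.49 (summed 120 to 166 CPM in sKO, against 282 to 356 CPM in WT). Of 11 genes of differentiating spermatogonia 8 fell, with a median of −1.94. The summed level of those 11 overlapped, at 832 to 1219 CPM in sKO and 1140 to 1213.5 CPM in WT, and was mostly Ccnd2. In whole testis, fewer germ cells and less RNA of these genes per germ cell cannot be told apart. By median log2 fold change the lists of other cell types moved less. The largest of these medians were −0.79 for mesothelium and −0.57 for rete testis and duct epithelium. By edgeR without the subset term, 0 of 17 Sertoli cell genes fell and 1, Amh, rose, where 2.3% of all genes were lower and 0.124% higher. With that term Amh, Gata4, Inha, Inhbb, Kitl and Gdnf were called higher, and Cldn11 and Dmrt1 lower. Of all genes 8.65% were then lower and 4.97% higher. Of the 7 Leydig cell, 8 stroma, 6 endothelial and 6 macrophage genes 0 passed without the term. With it the stroma genes Pdgfra, Dcn, Tcf21 and Nr2f2 and the endothelial gene Cdh5 were called higher. Of 7 myoid genes 1 fell without the term (summed 655 to 849 CPM in sKO, against 794 to 1003 CPM in WT). With it Myh11, Cnn1 and Tagln were called lower. The 7 genes of rete testis and duct epithelium summed to 12.4 to 33.2 CPM in sKO, against 42.8 to 43.4 CPM in WT. Of these, 4 were tested and 0 called without the subset term. With it Epcam was called lower (edgeR adjusted p = 0.0330). The part of these genes in the values of Rbp4 was not tested. On average most of the sum was Epcam (13.3 CPM in sKO, 30.6 CPM in WT) and Cdh1 (4.77 CPM in sKO, 7.99 CPM in WT). Which cells the Epcam and Cdh1 transcripts came from was not tested. Krt19 (0.0534 CPM in sKO, 0.463 CPM in WT) and Wfdc2 (0.648 and 0.862 CPM) were also lower in sKO without overlap. Pax8 (2.10 CPM in sKO, 2.45 CPM in WT), Krt7 (0.274 and 0.273 CPM) and Cldn4 overlapped between the groups. Of 3 mesothelium and 2 tested adipocyte genes 0 passed, and the adipocyte gene Cidec was at 0 in all libraries.

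Set against the summed pan-germ-cell genes of its own library, Stra8 was still lower in every sKO library. It equalled 0.805%, 0.867%, 1.03% and 1.58% of that sum in sKO-1 to sKO-4, against 3.05% in WT-1 and 3.49% in WT-2. The log2 difference was −1.66 (two-sided exact permutation p = 0.0667 over 15 assignments, the smallest this design allows, 0.0857 adjusted over the 9 genes). The sKO-4 library, which had the most Stra8 counts in its group, also had the highest summed germ cell level in its group, and its Stra8 share was the highest of the 4. The sKO-1 library had a summed germ cell level close to that of sKO-4 (204 against 208 CPM) but the lowest Stra8 share of the 4. Crabp1 equalled 0.234%, 0.788%, 0.610% and 0.555% of the sum in sKO-1 to sKO-4, against 1.15% in WT-1 and 0.921% in WT-2. All its sKO shares were below both WT shares, with a log2 difference of −1.04 (exact permutation p = 0.2, 0.225 adjusted). Rbp4 equalled 0.441%, 0.867%, 0.704% and 0.333% in the sKO libraries, against 0.252% and 0.452% in the WT libraries. Its groups overlapped and its log2 difference was 0.70 (exact permutation p = 0.267). With the summed spermatogonia genes in place of the pan-germ-cell genes the differences were −3.68 for Stra8 and −3.07 for Crabp1, and −1.33 for Rbp4, whose sign thus depended on the list. Most of that sum was Ccnd2, a cyclin gene that somatic cells of the testis also express, at 991 CPM on average in sKO and 892 CPM in WT.

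**Figure D3:**
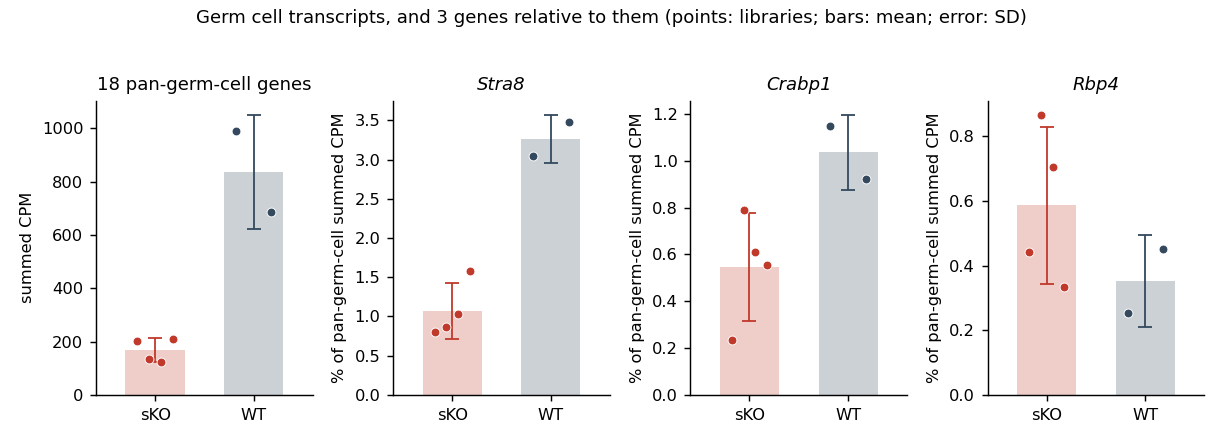
Summed CPM of 18 pan-germ-cell genes (left panel), and Stra8, Crabp1 and Rbp4 as a percentage of that sum, in 4 sKO libraries (red) and 2 WT libraries (blue). Points are libraries, bars are means and error bars are SD. The Stra8 share averaged 1.07% in sKO and 3.27% in WT, and the Rbp4 points of the groups overlap.

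The genes whose pattern over the 6 libraries was most like that of Stra8 were Sox3, Dmrtb1, Mov10l1, Tex16 and Sohlh1. Likeness was the root mean square difference of centred log2 CPM, and it ran from 0.39 for Sox3 to 0.58 for Sohlh1 among 12681 candidates. Candidates were tested genes with at least 1 CPM on average and an established symbol, and some other genes were left out as well. Sox3, a transcription factor of spermatogonia, averaged 0.732 ± 0.307 CPM in sKO (SD, n = 4) and 11.4 ± 5.91 CPM in WT (SD, n = 2). Dmrtb1, a regulator of the switch from mitosis to meiosis in the mouse, averaged 0.434 ± 0.442 CPM in sKO and 5.96 ± 1.34 CPM in WT. The genes most like Crabp1 were Rhox10 (0.31), Rbm44 (0.44), Sult4a1 (0.48), Stk31 (0.51) and Sycp2 (0.52), and Rhox10, a homeobox gene of the X chromosome, averaged 0.290 ± 0.119 CPM in sKO and 2.82 ± 0.487 CPM in WT. Stra8 and Crabp1 lay 0.60 from each other on this measure. With 6 libraries in 2 groups, any gene with a large genotype difference scores as alike.

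Beyond the 9 genes, 0 of 38 other tested genes of retinoic acid metabolism and signalling passed edgeR's test in either direction, where 2.43% of all genes tested did. A further 12 of the 50 listed were below the filter on low counts. By unadjusted p under 0.05, 5 were lower and 3 higher, where 8.91% and 4.17% of all genes were. DESeq2 called 1 lower (Ncoa3), limma-voom called 0, and edgeR with a term for the subsets called 5 lower and 5 higher, where 8.65% of all genes were lower and 4.97% higher. The 5 lower were Lrp2, Cyp26a1, Ncoa3, Kit and Rec8, and the 5 higher were Adh5, Rara, Rarres1, Lpl and Ncoa1. The median log2 fold change of the 38 was 0.07, and 24 were above 0.

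**Figure D4:**
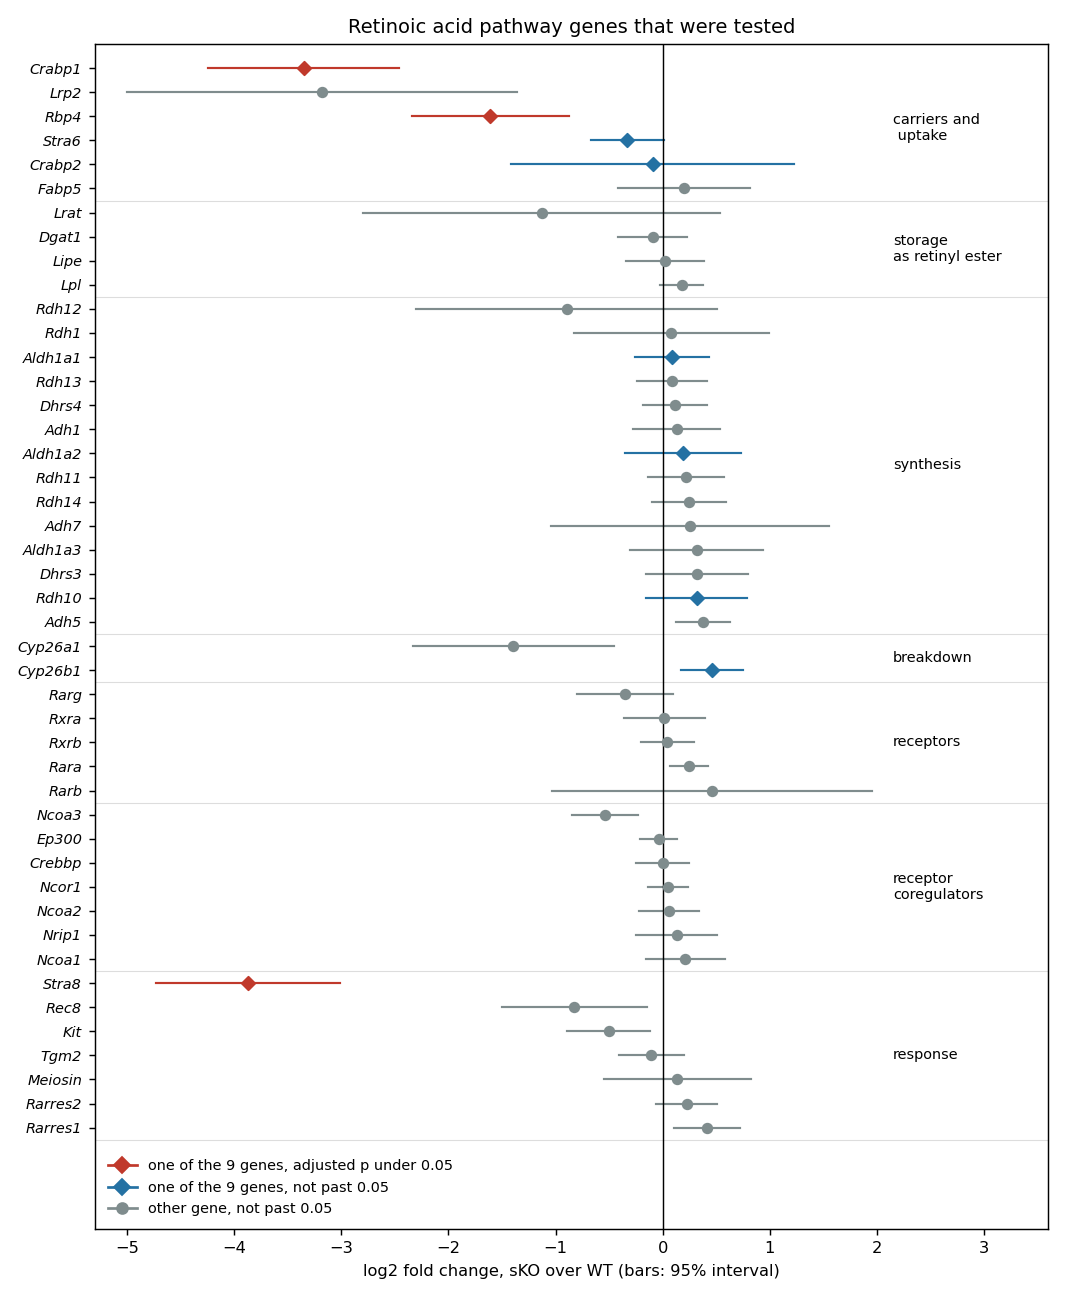
Log2 fold change, sKO over WT, of 45 of the 47 retinoic acid pathway genes tested, grouped by role, with 95% intervals as bars. Diamonds are the 9 genes (red where edgeR adjusted p was under 0.05) and grey circles are the others. Stra8 (−3.87), Crabp1 (−3.35) and Rbp4 (−1.61) are the red points, and Lrp2 (−3.18) is the grey point farthest from 0.

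Of the genes that store retinol as ester or release it, Lpl differed by 0.18 and Dgat1 by −0.09 on the log2 scale, with edgeR adjusted p of 0.463 for Lpl and 0.866 for Dgat1. Of the 11 genes listed for synthesis and tested beside Rdh10, Aldh1a1 and Aldh1a2, 0 passed the test. The list did not sort enzymes by the direction in which they act on retinol and retinal. It also held Dhrs3, which was listed under response as well, so counts over it do not measure synthesis. The median log2 fold change of the 11 was 0.22 and 10 lay above 0, where 55.3% of all genes did. The scaling to Sertoli cell genes moved the median of all genes from 0.03 to −0.12. The most abundant of the 11 was Adh5, which averaged 257 ± 8.66 CPM in sKO and 198 ± 32.1 CPM in WT. Its groups did not overlap (log2 fold change 0.38, SE 0.11, edgeR adjusted p = 0.161, or 0.00582 with a term for the subsets).

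In the breakdown group, Cyp26a1 ran opposite to Cyp26b1. It stood at 0.688, 0.375, 0.462 and 0.693 CPM in sKO-1 to sKO-4, against 1.19 CPM in WT-1 and 1.75 CPM in WT-2, all sKO values being below both WT values. Its log2 fold change was −1.39 (SE 0.40, edgeR adjusted p = 0.164, or 0.0481 with a term for the subsets). Cyp26a1, a direct target of retinoic acid receptors in many mouse tissues, was 2.63-fold lower in sKO by this fit without passing the test over all genes. Per length of exon it averaged 0.280 CPM per kb in sKO and 0.741 CPM per kb in WT, far under Cyp26b1. Of the 9 tested genes listed for response beside Stra8, Cyp26a1 among them, 5 lay above 0. They included Rarb (log2 fold change 0.46, edgeR adjusted p = 0.857) and Dhrs3 (0.32, edgeR adjusted p = 0.604), named after their values were seen. The groups overlapped for both.

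Of the receptors, Rara averaged 139 ± 2.88 CPM in sKO and 117 ± 4.91 CPM in WT without overlap (log2 fold change 0.24, SE 0.08, edgeR adjusted p = 0.208, or 0.0186 with a term for the subsets). Rxra, a partner of the RAR proteins, averaged 106 ± 15.7 CPM in sKO and 105 ± 20.2 CPM in WT, a difference smaller than the spread within either group. The corepressor gene Ncor1 had a log2 fold change of 0.05, with a 95% interval of −0.14 to 0.24.

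Among other response genes, Tgm2, a transglutaminase gene that retinoic acid induces in several cell types, differed by −0.11 on the log2 scale (SE 0.13, edgeR adjusted p = 0.837). Kit, the receptor that differentiating spermatogonia gain and that Leydig cells also carry, stood at 40.5, 27.6, 34.7 and 35.0 CPM in sKO-1 to sKO-4, against 54.7 CPM in WT-1 and 43.0 CPM in WT-2. All its sKO values were below both WT values, and its log2 fold change was −0.51 (SE 0.17, edgeR adjusted p = 0.222, or 0.0492 with a term for the subsets). Leydig cell genes summed to 811 to 1233 CPM in sKO, against 736 to 928 CPM in WT, and their part in the Kit values was not tested.

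The next genes were chosen after their values were seen. Meiosin, whose protein acts with STRA8 at the entry into meiosis, stood at 2.17, 2.62, 3.75 and 3.004 CPM in sKO-1 to sKO-4, against 2.54 CPM in WT-1 and 2.70 CPM in WT-2. Its groups overlapped, and its log2 difference of 0.14 (SE 0.30, 95% interval −0.55 to 0.82, edgeR adjusted p = 0.918) lay far from that of Stra8. Rec8, a cohesin gene of meiosis, averaged 2.99 ± 0.815 CPM in sKO and 5.30 ± 0.230 CPM in WT (log2 fold change −0.83, SE 0.29, edgeR adjusted p = 0.259, or 0.0262 with a term for the subsets). Ncoa3, a coactivator of nuclear receptors, averaged 34.6 ± 2.97 CPM in sKO and 50.3 ± 8.37 CPM in WT (log2 fold change −0.54, SE 0.13, edgeR adjusted p = 0.0985).

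Lrp2, an endocytic receptor that takes up retinol bound to RBP4, was close to 0 in sKO. It stood at 0.0529, 0.214, 0.0578 and 0 CPM in sKO-1 to sKO-4, against 0.986 CPM in WT-1 and 0.620 CPM in WT-2. Its log2 difference of −3.18 (SE 0.78, edgeR adjusted p = 0.101, or 0.0183 with a term for the subsets) rests on few counts, since 3 counts in a library come to 0.159 CPM in sKO-1.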

How the data were processed

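Polyadenylated RNA of whole P5 testes was sequenced in 6 libraries, grouped by their titles into 4 sKO and 2 WT. Grouping went by the labels, although the series' design text states 3 replicates for each genotype. The values are expected counts, as the authors deposited them in 1 table of 57170 gene identifiers. The submitters' processing notes name fastp, RSEM, STAR and, as the build, mm39. Tool versions, gene annotation and strand setting are not stated in the sources used here. Where a read fits more than 1 gene, RSEM splits it, so near copies are uncertain. Symbols came from GENCODE M21, which matched 90.5% of identifiers and 99.2% of the counts.

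Counts were rounded, filtered with filterByExpr (minimum count 10), scaled by TMM and tested with edgeR 4.0.16 in R 4.3.3 (quasi-likelihood, two-sided, Benjamini-Hochberg over 17707 genes, threshold 0.05). CPM are over TMM-scaled library sizes, log2 CPM for patterns and principal components carry a prior count of 2, and levels per kb use the union of exons. The main edgeR fit was tried on simulated counts with known changes, and the exact permutation on a made-up set of values. Other steps were not tested in this way. Shares of the pan-germ-cell sum were compared by exact permutation over libraries. DESeq2 1.42.0, limma-voom (limma 3.58.1), other scalings and filters, unrounded counts, left-out libraries, a replicate block and a term for the library subsets were alternatives. Transcripts were aligned with BLAST 2.17.0. The chi-square per gene was 6.70 between sKO-1 and sKO-2, 3.97 between sKO-3 and sKO-4, 19.6 to 23.9 between other sKO libraries and 21.6 between the WT libraries. All exceed sampling noise, so no library was taken as a repeat of another, but this does not show that the libraries are independent.

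The 9 genes and all lists were chosen with earlier results of these data known. Genes named by rule were the 9, in each role of a list of 59 retinoic acid genes the 2 most abundant and any past the threshold, the 5 genes of most similar pattern to Stra8 and to Crabp1, and Mdm2. Of these, 2 are not reported here.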

Additional observations from a re-analysis of the deposited data

How the results depend on the processing

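Stra8 and Crabp1 kept their direction and passed the threshold under the other scalings, tests and filters and with the subset term. Without WT-1 both missed it, with log2 fold changes of −3.69 (edgeR adjusted p = 0.111) for Stra8 and −2.86 (edgeR adjusted p = 0.143) for Crabp1. Over all left-out libraries Stra8 ran from −4.32 to −3.69, Crabp1 from −3.74 to −2.86, Crabp2 from −0.55 to 0.52 (not tested without sKO-1), Aldh1a1 from −0.10 to 0.26 and Rbp4 from −1.76 to −1.47, with Rbp4 passing in none. Rbp4 and Crabp2 were not tested under the filter of 1 CPM. With the replicate block on the 4 libraries numbered 1 and 2, Rbp4 was −1.44 (edgeR adjusted p = 0.185), Crabp2 0.20 and Aldh1a1 −0.063. Deviations of same-numbered libraries from their group means correlated at 0.42 and −0.44. With 2 WT libraries the WT deviations mirror each other, so these values cannot tell whether the numbers mark pairs. Crabp2 also changed sign without sKO-2 (0.00085), sKO-3 (0.06) and WT-2 (0.52), and Aldh1a1 with Sertoli scaling (−0.059) and without WT-1 (−0.10). With the spermatogonia lists, whose sum was mostly Ccnd2, the ratio differences of Rbp4 (−1.33) and Stra6 (−0.033, against 1.99) changed sign.

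Cyp26b1 passed in DESeq2 and with the subset term (0.47 in both), so 1 of the 9 genes was then higher. Without WT-1, 0 of the 9 were lower. Other pathway genes lower numbered 1 in DESeq2 and 5 with the subset term, which also called 5 higher. Of all genes, 408 were lower and 22 higher, against 685 and 112 in DESeq2 and 1531 and 880 with the subset term, so the share of higher calls was 5.12%, 14.1% and 36.5%. Left-out libraries gave 1 to 225 lower and 2 to 7 higher, where 1 remaining WT library was assumed to vary like sKO. The block gave 268 lower, and Sertoli scaling 10 higher. The causes were not tested. The sKO values rest on at most 57 counts of Stra8, 20 of Crabp1 and 22 of Rbp4 in a library, which limits their precision, and WT has 2 libraries.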

Other observations

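The balance of the most abundant breakdown and synthesis genes was computed after their values were seen. Cyp26b1 per length of exon, as a percentage of the summed Aldh1a1, Aldh1a2 and Aldh1a3 per length, was 32.3%, 26.9%, 28.5% and 28.5% in sKO-1 to sKO-4, against 22.8% in WT-1 and 22.2% in WT-2. Every sKO library was above both WT libraries. The size of these percentages depends on the exon length used for Aldh1a1, whose union of exons is longer than its longest protein-coding transcript. The mean was 29.1% ± 2.30 in sKO (SD, n = 4) and 22.5% ± 0.449 in WT (SD, n = 2). The log2 difference of 0.36 had a two-sided exact permutation p = 0.0667, the smallest that 15 assignments can give, so it cannot pass 0.05 in this design.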
